A study of Mus musculus with 12 samples.

Results

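The 6 libraries described here compare leukaemic cells that carry the BRD9-NUTM1 fusion with wild-type bone marrow. They are 3 libraries named BN1 and 3 named Control, out of 12 in the study. They were chosen by sample title, and no measured value entered that choice. The study profiled open chromatin by ATAC-seq, in which a transposase cuts accessible DNA and tags it for sequencing. All 6 samples were bone marrow of the mouse strain C57BL/6, labelled as CD45.2+ cells. The genotype label of BN1 was CD45.2(+) BRD9-NUTM1 and that of Control was CD45.2(+), with no treatment given for either. Each sample held 150000 cells sorted by FACS. The labels do not give how the fusion was introduced, the promoter that drives it, the host animals, the stage of disease, or any sorting marker beyond CD45.2. They also do not say whether replicates 1 to 3 came from separate animals, so the p-values measure only the spread between these samples, which may be technical.

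BRD9 is a bromodomain protein that reads acetylated lysines and belongs to the non-canonical form of the SWI/SNF chromatin remodelling complex. NUTM1 is normally made in the testis and binds the histone acetyltransferase p300. When NUTM1 is joined to a bromodomain protein in cancer, the fusion can gather acetyltransferase at chromatin that is already acetylated. Wild-type marrow holds granulocytes, B cells, erythroid precursors and many rarer cells, with mature granulocytes among its most abundant populations.

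Each library came as 1 list of peaks on chromosomes 1 to 19. Overlapping peaks of the 6 libraries, sharing at least 1 bp, were joined into regions. Gained regions had a peak in all 3 BN1 libraries and in no Control library, and lost regions had the opposite pattern. Because BN1 lists were far shorter, the calls were repeated with the 3011 strongest peaks of every library, which is the length of the shortest list. Strength was the deposited peak signal, read as the area of a peak, so that a wide peak can rank above a taller and narrower one. Ranks below count from 1, the strongest peak of a library. Absence of a peak means that none was called, and the chromatin may still have been open. The lists carry no read numbers, and the depth is therefore unknown.

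The promoters that carry the main contrasts are printed first, each as a window from 250 bases before to 50 bases after the gene start, from RefSeq on GRCm38.p6. S100a8 and S100a9 code for the subunits of the neutrophil protein calprotectin, and H2ac8 for a core histone H2A made in S phase. These 3 promoters lay in the strongest regions of wild-type marrow that had no peak in any BN1 library. Cebpa codes for the C/EBPα transcription factor of granulocyte precursors, Mt1 for a metal-binding metallothionein, and Cdt1 for a factor that licenses DNA replication origins. These 3 ranked far higher in BN1 than in Control. Capitals mark matches, on either strand, to the motifs named after the sequences, and every other base is in lower case.
S100a8, chr3:90668821-90669120, plus strand: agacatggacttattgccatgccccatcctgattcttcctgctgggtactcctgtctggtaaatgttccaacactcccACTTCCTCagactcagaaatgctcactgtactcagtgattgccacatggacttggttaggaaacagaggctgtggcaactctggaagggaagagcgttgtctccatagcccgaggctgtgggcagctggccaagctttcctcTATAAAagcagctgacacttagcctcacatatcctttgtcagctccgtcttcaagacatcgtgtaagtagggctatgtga
S100a9, chr3:90695672-90695971, minus strand: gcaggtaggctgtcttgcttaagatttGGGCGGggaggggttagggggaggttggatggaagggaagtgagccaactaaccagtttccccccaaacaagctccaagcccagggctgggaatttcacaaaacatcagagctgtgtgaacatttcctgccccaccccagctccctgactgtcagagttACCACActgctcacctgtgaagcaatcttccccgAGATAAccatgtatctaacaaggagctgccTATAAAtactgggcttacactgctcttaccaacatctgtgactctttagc
H2ac8, chr13:23571171-23571470, minus strand: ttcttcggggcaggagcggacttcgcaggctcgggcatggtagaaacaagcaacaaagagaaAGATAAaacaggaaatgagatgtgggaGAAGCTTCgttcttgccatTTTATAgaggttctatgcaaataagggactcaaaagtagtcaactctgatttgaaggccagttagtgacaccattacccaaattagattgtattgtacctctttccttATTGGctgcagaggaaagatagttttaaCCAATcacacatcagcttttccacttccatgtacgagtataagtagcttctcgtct
Cebpa, chr7:35119043-35119342, plus strand: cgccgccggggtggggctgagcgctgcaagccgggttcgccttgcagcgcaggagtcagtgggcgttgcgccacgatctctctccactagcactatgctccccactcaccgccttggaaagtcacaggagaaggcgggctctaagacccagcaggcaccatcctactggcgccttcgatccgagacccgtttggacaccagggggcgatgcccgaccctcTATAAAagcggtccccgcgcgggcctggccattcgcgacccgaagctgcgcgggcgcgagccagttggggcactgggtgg
Mt1, chr8:94178839-94179138, plus strand: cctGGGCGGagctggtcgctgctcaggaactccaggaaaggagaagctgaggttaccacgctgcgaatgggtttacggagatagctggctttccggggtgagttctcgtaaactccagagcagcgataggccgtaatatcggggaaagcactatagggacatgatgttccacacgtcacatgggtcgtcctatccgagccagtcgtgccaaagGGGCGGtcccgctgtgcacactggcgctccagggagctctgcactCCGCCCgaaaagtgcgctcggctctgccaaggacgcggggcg
Cdt1, chr8:122567765-122568064, plus strand: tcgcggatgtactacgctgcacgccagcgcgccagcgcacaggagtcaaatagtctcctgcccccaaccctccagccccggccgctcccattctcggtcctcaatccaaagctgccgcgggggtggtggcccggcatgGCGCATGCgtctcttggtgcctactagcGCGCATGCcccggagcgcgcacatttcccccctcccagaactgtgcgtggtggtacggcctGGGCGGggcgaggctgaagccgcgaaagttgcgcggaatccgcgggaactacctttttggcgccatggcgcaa

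The S100a8 window held a match to the PU.1 motif GAGGAAGT, which 3.18% of all 20085 promoter windows hold, and a TATA box, written as TATAAA and held by 12.7%. The S100a9 window held a TATA box and no PU.1 match. It also held the RUNX motif TGTGGT, present in 14.8% of all windows, the GATA motif AGATAA, present in 9.57%, and the SP/KLF GC box, which reads GGGCGG and is present in 47.0%. In the H2ac8 window the matches were a TATA box, a GATA motif, the CCAAT box that 38.1% of windows hold, and the heat shock element GAANNTTC of 7.20%. That window overlaps the divergent H2bc8 promoter. The Cebpa window held a TATA box and the Mt1 window GC boxes. The Cdt1 window held a GC box and matches to the NRF1 motif GCGCATGC, present in 3.55% of all windows. All motifs were searched on both strands, and matches that overlap were all marked. A match is a description of letters and does not show that a factor bound there.

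BN1 libraries had 4258, 3011 and 3432 peaks, and Control libraries had 27509, 25541 and 28023. The groups did not overlap, and the means were 3567 ± 634 and 27024 ± 1310 (SD, n = 3; exact two-sided permutation p = 0.1, the smallest that 3 against 3 allows). No result on these libraries can therefore pass a threshold of 0.05. The strongest peaks of BN1 were also narrow. Among the 3011 strongest, the median width was 402, 349 and 359 bp in BN1 and 1013, 972 and 1037 bp in Control, a mean of 370.0 ± 28.2 against 1007 ± 32.9 bp (exact permutation p = 0.1). Peaks of 2 kb or wider numbered 5 to 6 among the strongest BN1 peaks and 131 to 163 among those of Control. The signal of the peak at rank 3011 was 297, 200.1 and 228 in BN1 and 1689, 1557 and 1704 in Control, so equal list length does not mean equal depth. Whether depth, the share of reads in peaks or the cells themselves set the list length was not tested.

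**Figure D1:**
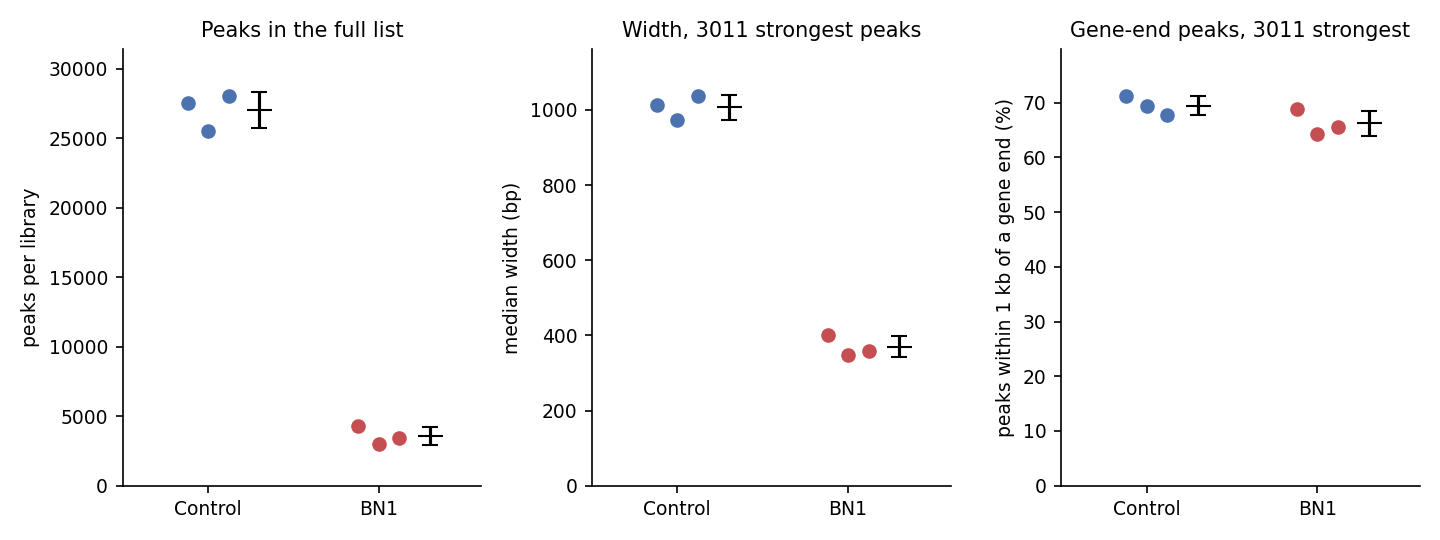
Peaks per library in the full lists (left), median width in bp of the 3011 strongest peaks (middle) and the share of those peaks within 1 kb of a gene end in percent (right), as 1 point per library with mean ± SD (n = 3) beside them. The groups do not overlap in the left and middle panels and do overlap on the right, where BN1 runs from 64.3 to 68.8% and Control from 67.8 to 71.2%.

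Gene-end peaks, those lying 1 kb or less from the start or end of any protein-coding gene, made up 68.8, 64.3 and 65.6% of BN1 peaks and 71.2, 69.5 and 67.8% of Control peaks at equal list length. The groups overlapped, and the difference of -3.26 percentage points gave an exact permutation p of 0.2. Peaks inside gene bodies took 79.1 ± 1.67% in BN1 and 85.2 ± 0.916% in Control (SD, n = 3; exact permutation p = 0.1), without overlap. Among the 100 strongest peaks of each library, the gene-end share was 65.7 ± 2.31% in BN1 and 77.3 ± 1.53% in Control, and the share over 10 kb from any gene end was 18.7 ± 1.15% against 10.7 ± 0.577% (exact permutation p = 0.1 for each). This difference depended on the list. At the 1000 strongest peaks the gene-end shares differed by 0 (exact permutation p = 1), and in the full lists BN1 was higher by 28.61 percentage points. With the 3011 strongest by −log10 p the difference was -9.53, and with a distance of 500 bp it was -5.07 (exact permutation p = 0.1 for the full lists and for both of these).

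In the full lists, 29555 regions were formed, of which 37 (0.125%) were gained, 19530 (66.1%) were lost and 2460 were called in all 6 libraries. Of the 2507 regions called in all 3 BN1 libraries, 2460 were therefore called in all 3 Control libraries as well. At equal list length 4715 regions were formed, with 527 gained (11.2%), 750 lost (15.9%) and 1545 shared by all 6. Of the 527 gained regions, 497 (94.3%) did have a peak in all 3 Control libraries, at a median mean rank of 4904 (interquartile range 3893 to 7398), and 20 had none. Of the 750 lost regions, 598 (79.7%) had no BN1 peak at any rank. List length fixes much of this difference, since the BN1 lists end at or soon after rank 3011 and the Control lists run on to rank 25541 or beyond. Gained regions had a median width of 365 bp, lost regions of 1196 bp and shared regions of 1077 bp. A gained region is built from BN1 peaks alone and a lost one from Control peaks alone. Their widths therefore follow the peak widths of each group, a mean of 370 bp in BN1 and 1007 bp in Control. When peaks were ranked by −log10 p in place of area, 290 of 527 gained regions remained gained, 339 of 750 lost ones remained lost, and 111 gained ones became shared. Of the 15 strongest of each kind, 8 gained and 9 lost regions kept it.

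Of the 15 lost regions strongest in wild-type marrow, 13 lay in or over a gene body and those nearest Ly6e and Smndc1 lay 20.1 and 32.4 kb away. The S100a9 region ranked 11, 8 and 9 in the Control libraries and the S100a8 region 17, 17 and 14. No BN1 library had a peak in either region, which for lost regions of the full lists follows from their definition. The S100a9 peaks were 4802 to 4882 bp wide. Ngp, which codes for a neutrophil granule protein, ranked 23, 22 and 74 in Control. Cd74, the invariant chain of MHC class II, ranked 63, 16 and 42. Coro1a, an actin regulator of leukocytes, ranked 28, 23 and 25, and the chemokine receptor gene Cxcr4, which holds cells in the marrow, ranked 59, 62 and 59. None of these had a BN1 peak. The region at Zfp36, which codes for an RNA-binding protein that destabilises cytokine transcripts, ranked 7, 6 and 7 in Control and was called in BN1 replicate 1 only, at rank 3170. Other strong losses lay near Ly6e, Smndc1, E2f2 and Gm46963 and over the histone genes H2ac8, H2bc13, H3c3 and H1f3. By −log10 p the S100a9, Coro1a, Cxcr4, Smndc1, E2f2, Gm46963, H2ac8, H2bc13 and H3c3 regions remained lost. The S100a8, Ngp, Cd74, Ly6e, H1f3 and Zfp36 regions did not, because at least 1 Control library ranked them below 3011 by that measure, or, for Zfp36, because BN1 replicate 1 ranked it at 2658.

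**Figure D2:**
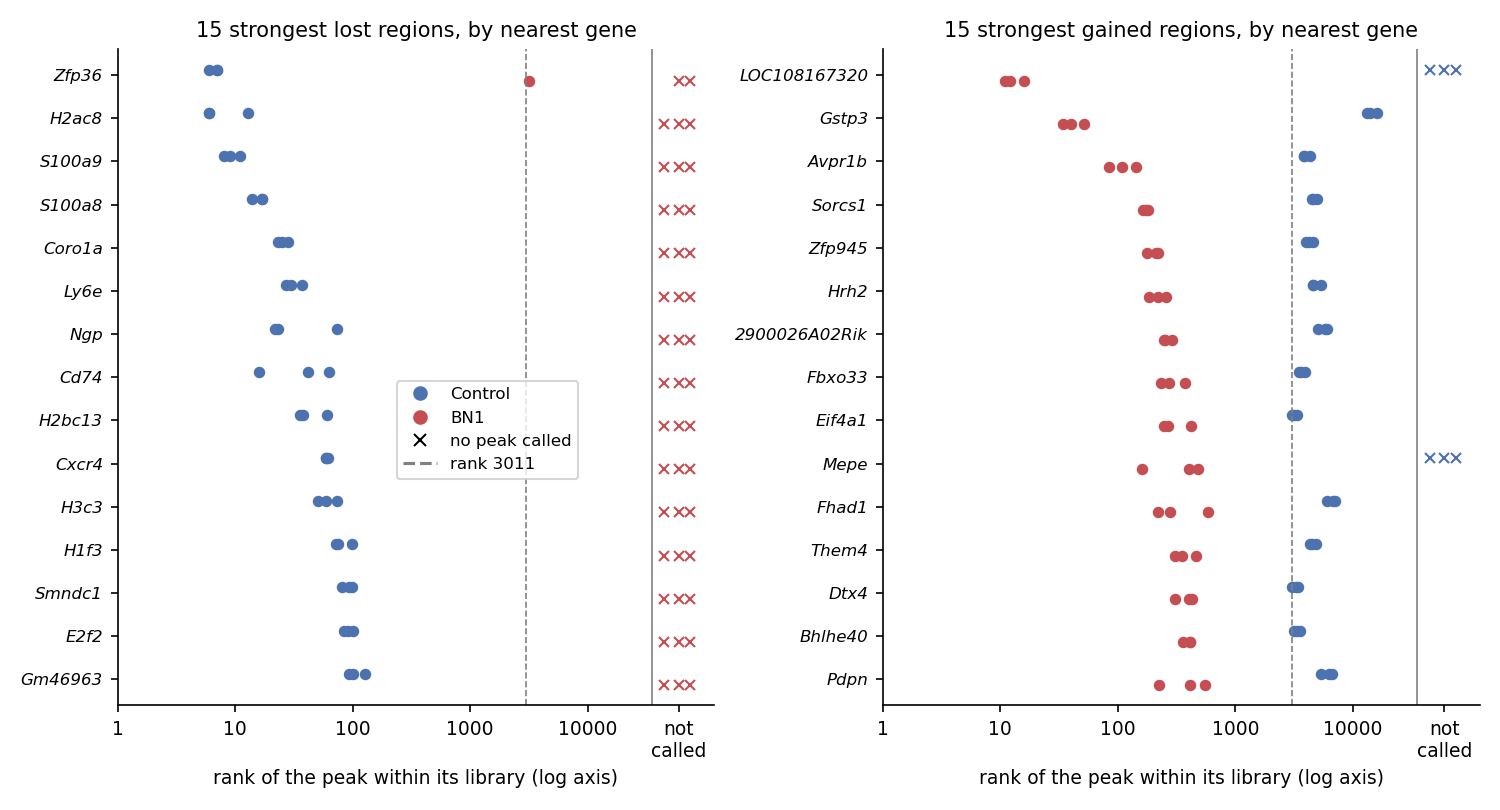
Rank of the peak in each library (horizontal log axis, 1 is the strongest) for the 15 strongest lost regions (left) and the 15 strongest gained regions (right) at equal list length, named by nearest gene. Circles are called peaks, crosses are libraries with no peak, and the dashed line is rank 3011; of the lost regions only Zfp36 has a BN1 circle, at rank 3170, while 13 of the 15 gained regions have Control circles.

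Replication-dependent histone genes, which sit in tight clusters and are transcribed as DNA is copied, held the largest number of lost starts among the gene lists examined. That list also had the most starts in all 3 Control lists of equal length. By share, some lists with few such starts lost more, as neutrophil maturation did with 5 of 6. At equal list length, 34 of 43 histone genes had a start within 1 kb of a peak in all 3 Control libraries, 22 of these were in no BN1 library, and 6 were in all 3. Across all protein-coding genes, 569 of 2381 such starts (23.9%) were in no BN1 library. Wide peaks can reach several starts: the 34 starts lay in 22 different Control peaks and the 22 lost starts in 16. The region at H2ac8, which also spans H2bc7, H2bc8 and H3c4, ranked 6, 13 and 6 in Control with widths of 5657, 4337 and 6266 bp, and had no BN1 peak. The 6 genes called in all libraries still ranked lower in BN1: H1f2, a linker histone gene, stood at 1917, 2283 and 2104 in BN1 against 20, 30 and 30 in Control, and the shared H3c1 and H4c1 peak at 456, 837 and 847 against 36, 45 and 47. The groups did not overlap at either. By −log10 p, 17 of 26 histone starts were in no BN1 library, against 676 of 2656 over all genes. Histone genes are near-identical copies, and how the authors placed reads that match several copies is not given, so single histone genes are uncertain.

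Starts that were strong in Control were called in BN1 more often than weak ones. Of 922 gene starts with a mean Control rank up to 1000, 734 were in all 3 BN1 full lists and 104 (11.3%) in none. Of the 6479 starts beyond rank 3011, 445 were in all 3. Histone genes held 30 of the 922 strong starts and 17 of the 104 that BN1 lacked, and 6 of the 30 were in all 3 BN1 libraries. The neutrophil maturation list held 4 more of the 104: S100a8, S100a9, Retnlg and Ngp. Of 10 chaperone genes of that strength, 9 were in all 3 BN1 libraries, near the 79.6% of all starts of that strength, and the other one, Hsp90ab1, was called in BN1 replicate 1 only.

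**Figure D3:**
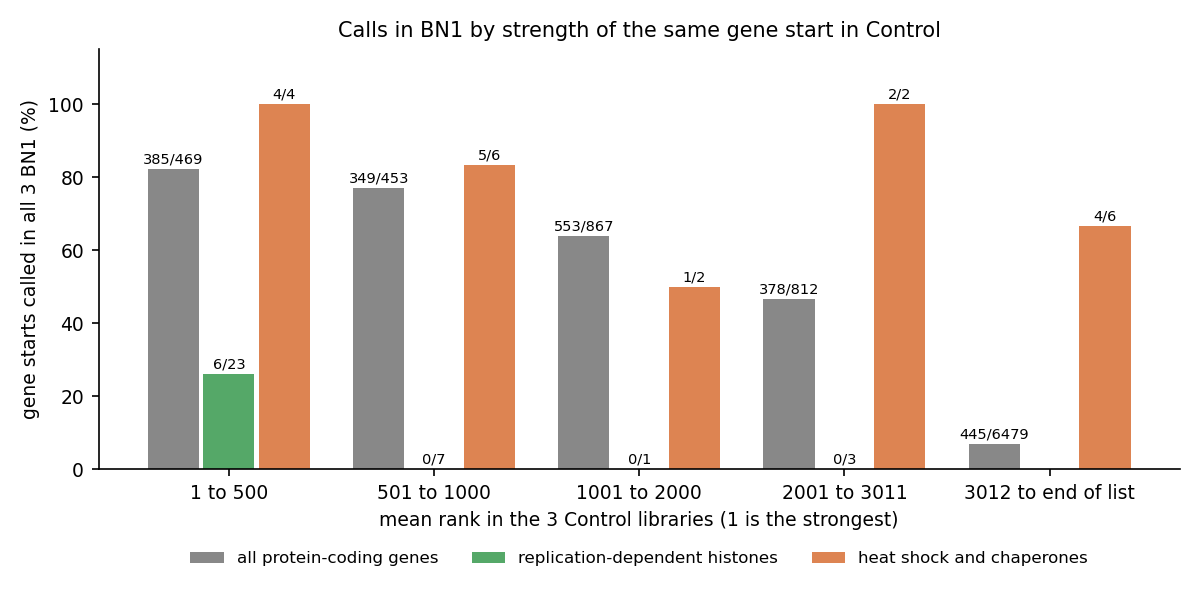
Share of gene starts that were called in all 3 BN1 libraries (vertical axis, percent; full lists), grouped by the mean rank of the same start in the 3 Control libraries (horizontal axis), for all protein-coding genes, histone genes and chaperone genes; numbers above the bars are called starts over all starts in the bin. The bar for all genes falls from 385 of 469 in the strongest bin to 445 of 6479 in the weakest, and in the strongest bin histones stand at 6 of 23.

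Most lost regions lay alone: with those within 20 kb of each other joined, the 750 formed 694 groups, of which 7 held 3 or more. The 527 gained regions formed 495 groups, of which 5 held 3 or more. On chromosome 13, 7 lost regions lay within 69.3 kb (chr13:23516883-23586191) among H4c8, H3c8, H4c6, H1f3, H2ac8, H4c4 and H2bc6, and all 7 had no peak in any BN1 library. Another 4 lay at chr13:21714804-21751085 (H2bc13, H2bc14, H4c11 and H4c12) and 4 at chr13:23744404-23765007 (H3c3, H2ac4, H4c2 and H1f1). A stretch of 52.5 kb on chromosome 7 held lost regions at Dhx34, C5ar2, C5ar1 and Inafm1, where C5ar1 and C5ar2 code for receptors of the complement fragment C5a on myeloid cells. Inside E2f2, the gene of a cell cycle transcription factor, 3 regions were lost, and the strongest ranked 101, 85 and 91 in Control.

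**Figure D4:**
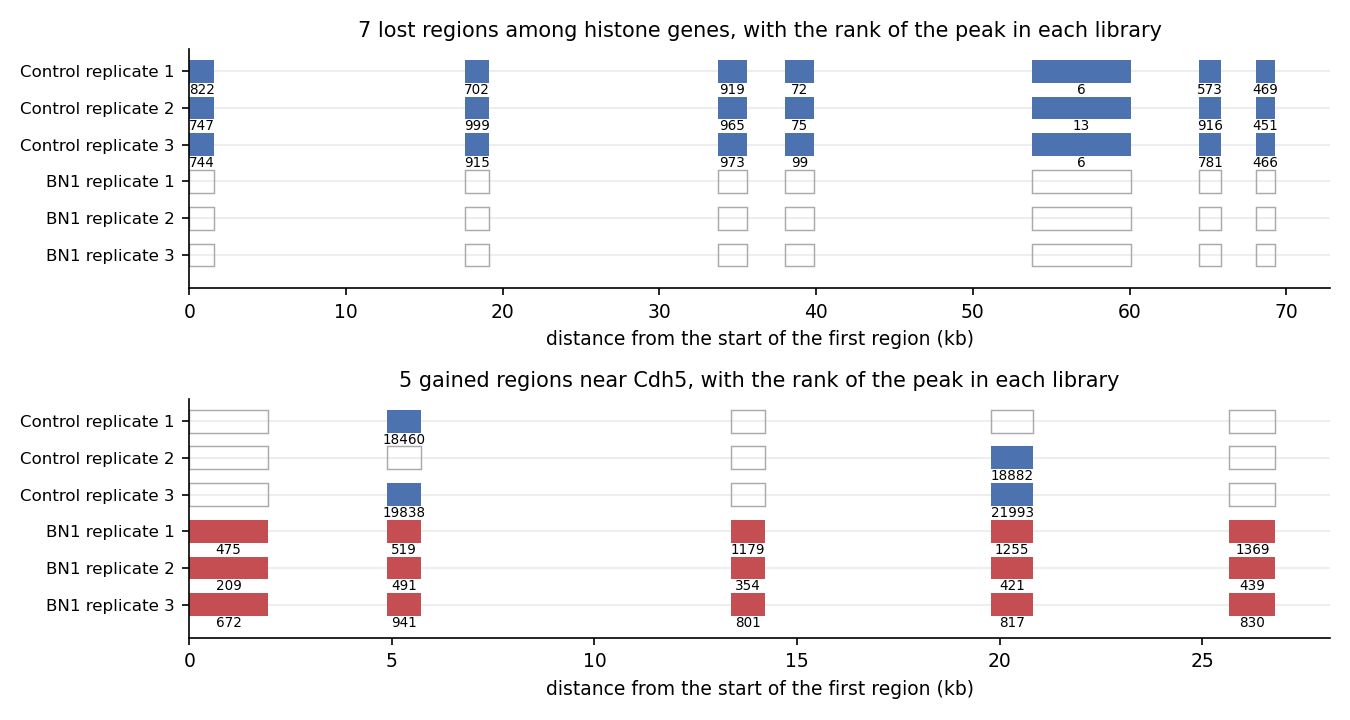
Regions drawn to scale by distance in kb from the start of the first one, for 7 lost regions among histone genes (top) and 5 gained regions near Cdh5 (bottom), with 1 row per library. Filled boxes are regions with a called peak, its rank printed beneath, and open boxes are regions with no peak in that library; the 3 BN1 rows are empty at the histone genes, and near Cdh5 the Control libraries have 4 peaks in all, at ranks from 18460 to 21993.

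Few markers of mature blood cells were called in BN1, and most of them ranked low in Control. Among 19 neutrophil maturation genes, 15 had a start called in all 3 Control full lists, of which 1 was called in all 3 BN1 lists. Across all genes that share was 2110 of 9080 (23.2%). The gene called in BN1 was Mxd1, a MYC antagonist, which ranked 354, 435 and 362 in BN1 and 698, 623 and 782 in Control. Of 6 neutrophil starts in all Control lists of equal length, 5 were lost (S100a8, S100a9, Ngp, Retnlg and Cxcr2). By −log10 p only 2 starts were in all Control lists, and 1 of them was lost. The B cell list, which includes the receptor chain Cd79a and the regulator Pax5, had 14 starts in all Control lists and 0 in all BN1 lists, and no single BN1 library called any. Of 18 erythroid starts, 1 was called in all BN1 lists, that of Nfe2, a regulator also used in megakaryocytes (803, 865 and 678 in BN1; 910, 863 and 694 in Control). The α-globin gene Hba-a1 ranked 235, 490 and 319 in Control and was called in no BN1 library, although its near-identical copy Hba-a2 makes that placement uncertain. T cell genes had 4 starts in all Control lists and stem and progenitor genes had 4, with 0 in BN1 for each list, and NK cell genes had 0 in either group. The median mean Control rank of these starts was 7710 for neutrophil genes, 8055 for B cell genes and 7726 for erythroid genes, against 5855 over all genes, so most were weak in Control too. Beyond Control rank 3011, 6.87% of all starts were in all BN1 lists and 82.2% in none. At that strength 0 of 13 B cell, 0 of 15 erythroid and 0 of 9 neutrophil starts were in all BN1 lists, near the share over all genes. Fewer cells of a type and less open chromatin per cell cannot be told apart in these bulk samples.

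The label of CD45+ blood cells was checked against pan-blood genes. Of 16 such genes, 15 had a start called in all 3 Control lists. Of these, 4 were in all 3 BN1 lists (26.7%, against 23.2% over all genes). These starts were strong in Control, with a median mean rank of 1113 against 5855 over all genes. Of the 7 with a mean Control rank up to 1000, 4 were in all BN1 lists and 2 in none. Over all starts of that strength the shares were 79.6% and 11.3%. Of the 7 from rank 3012 on, 0 were in all BN1 lists, against 6.87% of all starts there. Counts this small do not set the list apart. Ptprc itself, which codes for CD45, had a start peak at ranks 5991, 6052 and 2792 in Control and none in BN1. The 4 called in BN1 were Spi1, which codes for the myeloid factor PU.1, Laptm5, the integrin gene Itga4 and Lyl1. Spi1 ranked 2132, 1752 and 1341 in BN1 and 83, 81 and 70 in Control, and Itga4 ranked 611, 272 and 317 in BN1 and 87, 123 and 113 in Control. Lyl1, a transcription factor of blood progenitors, overlapped between groups (558, 1437 and 728 in BN1; 821, 793 and 932 in Control). The starts of 15 endothelial and stromal genes and of 20 genes silent in blood were called in no library of either group. Of 16 housekeeping starts called in all Control lists, 7 were in all BN1 lists (43.8%, against 23.2% over all genes). Actb, which ranked 5 in every Control library, was called in no BN1 library. These start values, and those of single genes in the following paragraphs that are not among the strongest gained or lost regions, were chosen after they were seen.

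**Figure D5:**
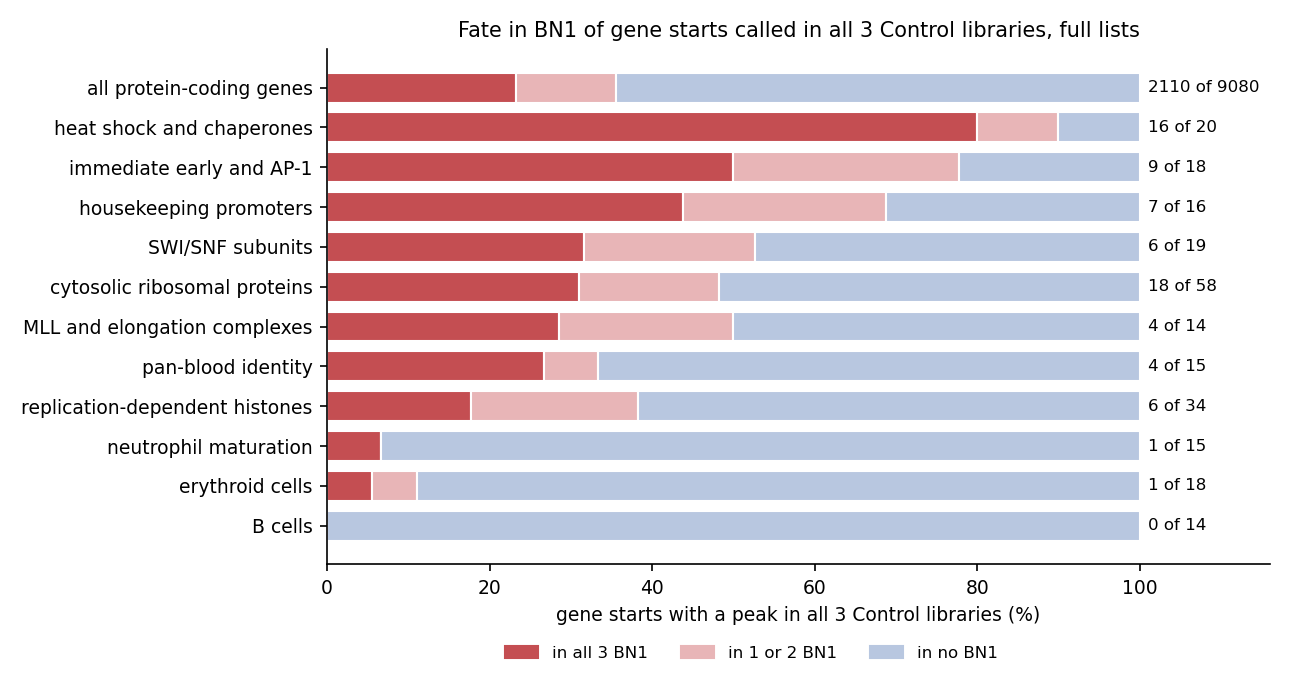
Gene starts called in all 3 Control full lists, divided by their calls in BN1 (all 3 libraries, 1 or 2, none) as percent of the starts of each list, with the number in all 3 BN1 printed at the right. All protein-coding genes stand at 2110 of 9080, chaperones at 16 of 20 and B cell genes at 0 of 14.

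Chaperone genes, which help proteins fold and respond to stress, were mostly called in BN1. All 20 heat shock and chaperone genes had a start called in all Control lists, and 16 were in all BN1 lists, where the share over all genes was 23.2%. Hspa8, the constitutive HSP70, ranked 69, 110 and 114 in BN1 and 112, 136 and 152 in Control. Dnajb1, a cofactor of HSP70, ranked 540, 452 and 497 in BN1 and 576, 671 and 613 in Control. Among equally long lists Hsp90aa1 was gained, at 587, 1840 and 1702 in BN1 against 3939, 3696 and 4490 in Control. Hspa1a, the inducible HSP70, was gained too, at 2015, 1389 and 1394 against 5122, 4432 and 4729, but Hspa1a and Hspa1b are close copies and their peaks are uncertain. Hsph1, an HSP110 chaperone, was lost, at 1050, 1263 and 1316 in Control and no peak in BN1, and without BN1 replicate 1 the lost chaperone starts numbered 2. The median mean Control rank of the list was 1071, against 5855 over all genes. Of the 6 chaperone starts beyond Control rank 3011, 4 were in all BN1 lists, against 445 of 6479 over all genes. Starts beyond rank 3011 run to the end of the Control lists, so strength was not matched among them. The gained regions at Hsp90aa1, Hspa1a and Hspa1b had mean Control ranks of 4042, 4761 and 5091, in the stronger part of that range. Among the 3011 strongest peaks, 4 of the 20 starts were gained, 1 was lost and 9 were shared by all 6 libraries. Over all 20665 protein-coding genes, 293 starts were gained, 569 lost and 1519 shared. Of those genes, 17086 had no start in any of these lists, as did 2 of the 20 chaperone genes.

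Immediate early genes, which respond within minutes to signals, were divided. All 18 had a start in all Control lists and 9 were in all BN1 lists (50%, against 23.2% over all genes). These starts were strong in Control, with a median mean rank of 668 against 5855 over all genes. Of the 10 with a mean Control rank up to 1000, 7 were in all BN1 lists, against 79.6% of all starts of that strength. Junb ranked 91, 65 and 90 in BN1 and 85, 89 and 71 in Control, where the groups overlapped. Jun ranked 550, 206 and 321 in BN1 against 74, 93 and 84, and Fos 1429, 1195 and 1569 against 390, 495 and 489, without overlap. Ier2, a nuclear immediate early protein, stood at 1812, 1578 and 1522 in BN1 against 12, 9 and 24 in Control. Egr1, Egr2, Ier5 and Zfp36 were lost at equal list length, 4 of 14 starts, near the 23.9% over all genes, and by −log10 p 1 of 11 was lost. Cytosolic ribosomal protein genes had 58 starts in all Control lists and 18 in all BN1 lists (31.0%, against 23.2% over all genes). At equal list length 6 of 21 ribosomal starts were lost, or 13 of 32 by −log10 p, against 569 of 2381 (23.9%) and 676 of 2656 over all genes.

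In lists of equal length 293 gene starts were gained, and single ones are described here without a shared theme. Cebpa ranked 812, 740 and 538 in BN1 and 9240, 8479 and 9319 in Control, with widths of 457 to 510 bp against 331 to 372 bp. It was gained by −log10 p as well. Cebpa was the 1 gained start of the 13 genes of the promyelocyte granule list. Of these, 5 had a start in all Control full lists. In BN1, 2 of the 5 were in all 3 full lists (40%, against 23.2% over all genes) and 3 were in none. Of the 4 beyond Control rank 3011, 1 was in all BN1 lists, against 6.87% of all starts there. Mt1 ranked 843, 566 and 537 in BN1 and 15182, 15252 and 15361 in Control. Cdt1 ranked 583, 440 and 417 in BN1 and 3019, 3527 and 4187 in Control, so that 1 Control library stood just outside the 3011 strongest peaks. Nampt, which codes for an enzyme of NAD synthesis, ranked 517, 1006 and 780 against 3418, 3567 and 3752, but by −log10 p its Control peaks stood at 2554, 2296 and 2761, within the strongest. The coagulation genes F7 and F10 lay in a group of 3 gained regions over 8.91 kb, and the F10 promoter ranked 1259, 783 and 902 in BN1 against 12158, 9723 and 10162 in Control. Cd68, a lysosomal protein gene of macrophages, ranked 1266, 1416 and 1282 against 3829, 4227 and 3638. It was the 1 gained start of the 14 monocyte and macrophage genes. Of these, 9 had a start in all Control full lists, all beyond rank 3011. Cd68 alone was in all BN1 lists (11.1%, near the 6.87% of all starts of that strength), and 8 were in none. By nearest region, Cd68 and Psap of that list were gained. Lyz2 was lost, at 153, 191 and 114 in Control with no BN1 peak, although not by −log10 p. At Gstp3, in a family of close glutathione transferase copies, peaks of 2113 to 2337 bp ranked 40, 34 and 52 in BN1, and peaks of 362 to 401 bp ranked 13258, 14020 and 16027 in Control. The wider BN1 peaks at Cebpa and Gstp3 were not typical of gained regions. Over the 527 gained regions the median peak width was 338 bp in BN1. In Control it was 513 bp, over the 497 of them with a peak in all 3 libraries.

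At equal list length, the strong gains included regions that Control called further down its lists. A region 463 kb from Sorcs1, a sorting receptor gene, ranked 173, 180 and 163 in BN1 and 4968, 4485 and 4555 in Control. Bhlhe40, the gene of a transcriptional repressor of the circadian and immune systems, stood at 410, 362 and 409 against 3129, 3552 and 3352, and Pdpn, the gene of the membrane glycoprotein podoplanin, at 224, 409 and 556 against 6312, 6680 and 5324. As gained regions, all 3 have BN1 ranks up to 3011 and Control ranks above it by definition. Around Kdm6b, which codes for an H3K27 demethylase, 3 regions within 1.64 kb were gained, and the strongest ranked 695, 597 and 716 in BN1 and 8302, 6411 and 7273 in Control. By −log10 p the regions near Avpr1b, Zfp945, Hrh2, Fbxo33 and Them4 were shared and those near Eif4a1 and Mepe no longer gained. ME and MA9 are the other leukaemias of the study, which carry MLL-ENL and MLL-AF9. Of the 527 gained regions, 338 (64.1%) were among the 3011 strongest of all 3 ME libraries and 231 (43.8%) of all 3 MA9 libraries. Of the 750 lost regions, 77 were among the strongest of all ME and 167 of all MA9 libraries. Of the 1545 shared regions, 1449 (93.8%) and 1389 (89.9%) were. Of the 1893 regions that were neither gained, lost nor shared, 681 (36.0%) and 659 (34.8%) were. A place among the strongest peaks of these leukaemias is therefore not particular to gained regions.

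The 37 regions gained in the full lists were mostly outside promoters, with 2 within 1 kb of a gene end and 54.1% over 10 kb from one. The strongest lay beside LOC108167320 at chr9:124439114-124440943, with ranks of 16, 11 and 12 in BN1. A region inside Mepe, a gene of the bone matrix, ranked 402, 160 and 480. Near Cdh5, the gene of vascular endothelial cadherin, 5 regions were gained at equal list length within 26.8 kb (chr8:104071812-104098622), 3 of them also in the full lists. The region farthest from Cdh5, at 27.9 kb, ranked 475, 209 and 672 in BN1 and had no Control peak, and the nearest, at 2.99 kb, ranked 1369, 439 and 830 with no Control peak. The start of Cdh5 itself was not called in any of the 6 libraries. Of the 37 regions, 24 were called in all 3 ME libraries and 21 in all 3 MA9 libraries. A gain over Control is therefore not the same as a region called in BN1 alone.

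Inside or near chromatin regulators the calls went both ways. At equal list length 3962 genes were nearest to a region, 496 (12.5%) of them to a gained and 706 (17.8%) to a lost one. Of 9 genes for MLL and elongation complexes with a region, 4 were nearest to a gained region (Men1, Kmt2a, Dot1l and Aff1) and 1 to a lost one. The lost one was Men1 as well: menin's promoter region ranked 884, 1324 and 1127 in BN1 against 4599, 4680 and 4916 in Control, while a second region at the other end of the gene ranked 676, 681 and 819 in Control and was called in BN1 replicate 1 only, at rank 3249. Kmt2a, which codes for MLL, ranked 1245, 2185 and 1922 in BN1 against 4466, 4682 and 5227. Dot1l, an H3K79 methyltransferase gene, had a region 3.23 kb away at 1537, 2213 and 2278 against 15849, 14165 and 14849. Among SWI/SNF subunits, 8 had a region, with gained ones at Arid1a and Arid1b and a lost one at Bicral, a subunit of the BRD9 complex. The start of Brd9 ranked 4627, 3470 and 3213 in Control and was called in no BN1 library, and Nutm1 was called in none of the 6. A peak at these genes does not measure the fusion, which was not checked here. Of 14 starts of the MLL and elongation list called in all Control lists, 4 were in all BN1 lists (28.6%). Of 19 SWI/SNF starts 6 were (31.6%), against 23.2% over all genes. Median mean Control ranks were 4762 and 5155, against 5855 over all genes. Counts this small do not set either list apart.

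The Hoxa cluster and the neighbourhood of Bmi1, both known for maintaining immature blood cells, held few peaks in BN1 and, among the 3011 strongest, equally few in Control. Over chr6:52155367-52260880 the BN1 libraries had 0 peaks each and the Control libraries 2, 1 and 1, the strongest at rank 17673, so neither group had one among its 3011 strongest. No start of the 11 Hoxa genes was called in either group. Over chr2:18044087-19661279 BN1 libraries had 3, 2 and 2 peaks and Control libraries 26, 22 and 29. Among the 3011 strongest peaks the numbers there were 3, 2 and 2 in BN1 and 2, 2 and 2 in Control. Otud1, a deubiquitinase gene in that window, was called in all 6, at 1667, 1619 and 1840 in BN1 against 2230, 2830 and 2679 in Control. Mllt10, a partner gene of MLL, was called in BN1 replicate 1 only, at rank 807, and in Control at 2142, 2383 and 2664. The start of Bmi1 was called in no BN1 library and in 1 Control library.

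Promoters that were gained and lost differed in base composition. Of 20085 windows, 247 lay in peaks of all 3 BN1 and no Control library at equal list length, 585 in the reverse and 1334 in all 6. The median GC content was 67.0% in gained, 57.0% in lost and 63.7% in shared windows, against 57.0% in all windows and 52.0% in 11435 windows with no peak in any of the 6 full lists. The SP/KLF GC box was found in 84.6% of gained and 59.1% of lost windows, 79.6% of shared and 47.0% of all windows. The TATA box stood at 3.64% of gained, 8.89% of lost and 12.7% of all windows, and GATA at 2.83%, 8.72% and 9.57%. PU.1 stood at 3.24% of gained, 3.76% of lost and 3.18% of all windows. The part of GC content in these shares was not tested, and histone promoters are among the lost windows.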

How the data were processed

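ATAC-seq peaks of 3 BN1 and 3 Control libraries were compared. Genrich, Bowtie2 2.5.4, deepTools 3.5.1 and Picard 3.2.0 were used on build mm10 (GRCm38), per the submitters' processing notes. The authors deposited 1 narrowPeak list per library, holding a capped score, a signal, read here as Genrich's area and never below 200.01, and −log10 p and −log10 q values. Genrich options, handling of reads that match several places, and read depth are not given in the sources used here. Peaks outside chromosomes 1 to 19 were left out (1 to 44 per library). Merging, nearest genes (RefSeq, GRCm38.p6), motif matches and ranks were computed with Python 3.11.15, numpy 2.4.6, pandas 2.3.3 and scipy 1.17.1, and checked on simulated peaks. Of 20665 protein-coding genes, 16457 had a start in the promoter table, and either gene end stood in for the others. Group values were compared by two-sided exact permutation tests. Named regions were the 10 strongest gained and lost (full lists), the 15 strongest gained and lost (equal length), the 10 strongest shared, and up to 4 genes per list and direction, with all Hoxa and Bmi1 neighbourhood genes that had a region. Members and gene lists were chosen with earlier results of these data known. Alternatives changed the signal and −log10 p minimum, list length, ranking, overlap, gene-end distance, libraries required and replicates.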

Additional observations from a re-analysis of the deposited data

How the results depend on the processing

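Asking for a peak in 2 of 3 libraries gave 65 gained regions in the full lists and 872 at equal list length. With peaks of signal 400 or more, the full lists gave 12 gained regions, 8 of them among the main 37, and 12911 lost ones, 11006 of them among the main 19530, and the 1000 strongest peaks gave 266 gained and 339 lost, by construction of a shorter list. The gene-end share reversed with the list: BN1 was higher by 28.61 percentage points in the full lists and equal (0, exact permutation p = 1) at the 1000 strongest. Ranked by −log10 p, 459 regions were gained and 706 lost, and the gene-end difference was -9.53 (exact permutation p = 0.1). At 500 bp it was -5.07. Leaving out 1 replicate at a time gave 37 to 52 gained and 19601 to 21339 lost regions in the full lists, and 537 to 725 and 780 to 857 at equal length. With the replicate number as a block, a paired exact permutation gave p = 0.25, the smallest 3 pairs allow, for peak number (-23457), gene-end share (-3.26) and width (-637). Same-numbered libraries correlated at 0.0798, -0.0185 and 0.046 in their deviation from the group mean of log2 rank, over the 1545 shared regions. Ranks of shared regions cannot tell whether libraries had an animal or a day in common, so pairing by number remains unknown. Unknown depth limits every call of absence in BN1.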

Other observations

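Regions called in all 6 libraries include the strongest of BN1. At Pisd, a mitochondrial phospholipid enzyme gene with near-copies in the genome, the strongest region ranked 1 in all 6 libraries, and a second one ranked 2 in all 6. A further region there ranked 3, 3 and 3 in BN1 and 16, 14 and 13 in Control. Below these, BN1 ranked narrow regions that lay far from genes. The region nearest Tyrp1, 829 kb away, ranked 6, 6 and 6 in BN1 and 80, 69 and 78 in Control. The region nearest Ptprd ranked 8, 8 and 8 against 364, 302 and 303, that nearest Kcnip1 10, 9 and 9 against 659, 536 and 551, and that nearest Olfr1454 11, 10 and 10 against 1316, 1111 and 1197. All of these remained shared when peaks were ranked by −log10 p.

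Chromosome 13, which carries the largest histone cluster, held 3.22% of the strongest BN1 peaks and 4.01% of those of Control. Of its 186 regions, 48 (25.8%) were lost and 14 (7.53%) gained, against 15.9% and 11.2% of all 4715 regions. On chromosome 19, 5.31% of BN1 and 4.34% of Control peaks lay. Of its 218 regions, 38 (17.4%) were gained and 27 (12.4%) lost. Both chromosomes were chosen after their values were seen. At equal list length the peak shares of the groups did not overlap on other chromosomes either. BN1 was higher on chromosomes 8 and 9 and lower on 1, 6 and 7.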
